A study of Mus musculus with 8 samples.

Results

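The genes described here are the transforming growth factor beta (TGF-beta) and bone morphogenetic protein (BMP) signalling genes of the mouse inner medullary collecting duct (IMCD), together with the BMP inhibitor gene Mgp. The 48 genes were chosen by name from the 77981 genes of the table, and all 48 were found. They cover ligands, receptors, SMAD proteins, secreted antagonists, latent TGF-beta binding proteins and target genes. The choice was made with earlier results of these data known. Expression was measured in kidney RNA with the cell type label IMCD, in 4 libraries of genotype AVP-flox and 4 of genotype AVP-flox;Cre. Both groups carry loxP sites around the vasopressin gene Avp and both have the treatment label Tamoxifen, so the groups differ by the Cre recombinase alone as far as the labels say. No source used here names the promoter that drives Cre, the strain, the age or the tamoxifen dose. The labels do not state that replicates are separate animals, so p-values measure the spread between these samples, part of which may be technical.

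Signalling in this family starts when a secreted dimeric ligand brings a type II and a type I receptor kinase together. The type I receptor then phosphorylates receptor SMADs: SMAD2 and SMAD3 carry TGF-beta and activin signals, and SMAD1 and SMAD5 carry BMP signals, each with SMAD4 as the shared partner. SMAD6 and SMAD7 inhibit the pathway, and the ID genes are classical targets of the BMP branch. In the kidney, TGF-beta signalling is known for its part in matrix deposition, and BMP7 and its antagonists for collecting duct growth and repair.

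Values are TPM, a level per transcript length scaled to one common library total. TPM keeps no read counts, so the depth behind each value is unknown. Libraries are named by group and replicate number. Fold changes are AVP-flox;Cre against AVP-flox, from limma on log2(TPM + 1) over the 19043 genes whose mean reached 1 TPM, with Benjamini-Hochberg adjusted p-values and a threshold of 0.05. This log2 scale understates the change of low genes. Folds in words are ratios of mean TPM, and errors on means are SD with n = 4 per group.

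Avp was listed at 0 to 0.24 TPM in the AVP-flox libraries, and its AVP-flox;Cre range was 0 to 0.27 TPM. At levels this low in both groups, these values do not check the deletion. All 14 collecting duct markers were above 1 TPM, and 5 rose while 4 fell. They summed to 22786 to 27366 TPM in AVP-flox and 15501 to 18009 TPM in AVP-flox;Cre, of which the water channel gene Aqp2 alone went from a mean of 15995 to 6304.5 TPM. The number of genes detected above 0 TPM was 33576 in AVP-flox;Cre 2 and 50951 to 58232 elsewhere. By Xist and Y-linked genes, 1 AVP-flox and 2 AVP-flox;Cre libraries looked male and the others female, so each group holds RNA of more than 1 animal. Of all genes tested, 27.3% passed the threshold (13.1% as higher and 14.2% as lower in AVP-flox;Cre), and the median log2 fold change was -0.01.

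39 of the 48 genes passed the filter of 1 TPM. Of these, 13 rose in AVP-flox;Cre, 8 fell and 18 did not pass the test, against the 13.1% and 14.2% of all genes tested. The genes were chosen with earlier results of these data known, so these counts do not test the pathway as a whole. The rises were Bmp3 and genes among the TGF-beta ligands (2 of 3), receptors (5 of 11), latent TGF-beta binding proteins (3 of 3 tested) and secreted antagonists (2 of 3 tested). The falls were the 4 ID genes, the inhibitory Smad6 and Smad7, Smad2 and the ligand gene Bmp2. The median log2 fold change of the 39 was 0.14. The groups did not overlap for 14 genes in the higher direction and 6 in the lower one, against 14.7% and 14.9% of all genes tested. With AVP-flox;Cre 2 and 4 both left out, an omission chosen after seeing the data, 10 of the 39 rose and 3 fell. Of all 19043 genes tested in that fit, 1555 rose and 1433 fell.

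**Figure D1:**
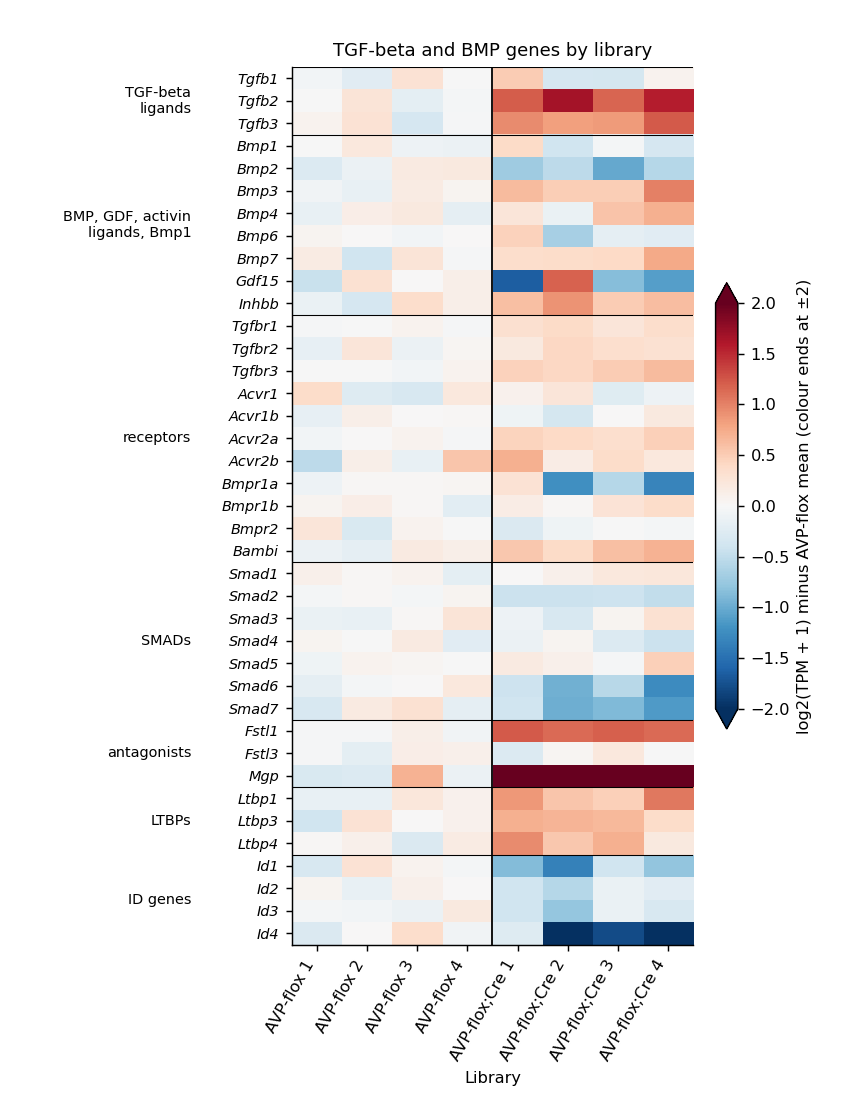
Heat map of the 39 tested genes (rows, grouped by role) in the 8 libraries (columns). Colour is log2(TPM + 1) minus the AVP-flox mean of the gene, with the colour scale ending at 2 in each direction, which Mgp exceeds in the AVP-flox;Cre libraries and Id4 in AVP-flox;Cre 2 and 4. Tgfb2, Mgp and Fstl1 are red in every AVP-flox;Cre library, while Id4 is strongly blue in AVP-flox;Cre 2 to 4 but not in AVP-flox;Cre 1.

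Among the TGF-beta ligands, Tgfb2 and Tgfb3 rose and Tgfb1 did not pass the test. Tgfb2 (ENSMUSG00000039239) stood at 2.57, 3.27, 2.12 and 2.47 TPM in AVP-flox 1 to 4 and at 7.33, 10.4, 6.99 and 9.70 TPM in AVP-flox;Cre 1 to 4. Every AVP-flox;Cre library was above every AVP-flox library. The rise was 3.30-fold, with a log2 fold change of 1.41 (SE 0.17, limma adjusted p = 0.000386), and the exact permutation test of mean TPM gave p = 0.0286 (two-sided), the smallest that 4 against 4 allows. Among the members that passed in limma, the permutation test gave this same p except for Tgfbr2, Id2 and Id4, each at p = 0.0571. Tgfb3 was at 4.03, 4.84, 2.78 and 3.67 TPM in AVP-flox and at 8.21, 7.41, 7.65 and 10.2 TPM in AVP-flox;Cre. It rose 2.18-fold without overlap (log2 fold change 0.96, SE 0.17, adjusted p = 0.00261). Tgfb1, the isoform best known in fibrosis, was low in both groups, at 1.67 to 2.84 and 1.46 to 3.48 TPM, and its 95% interval ran from -0.56 to 0.51 on the log2 scale. The ligand makeup differed accordingly. The summed TPM of the 3 genes went from 8.61 ± 0.86 to 19.2 ± 2.5, and Tgfb1 made up 25.8 ± 8.2% of it in AVP-flox, against 11.4 ± 4.7% in AVP-flox;Cre. Tgfb2 made up 27.4 to 33.4% and 38.5 to 53.9% of it. These sums and shares were not tested.

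Of the BMP, growth differentiation factor (GDF) and activin ligand genes, listed with the proteinase gene Bmp1, 8 of 12 were tested, 1 rose and 1 fell. Bmp4, an agonist of the BMP branch, was the most abundant, at 31.96, 39.0, 41.0 and 31.4 TPM in AVP-flox and 42.2, 32.4, 53.3 and 58.7 TPM in AVP-flox;Cre. Its groups overlapped and it missed the threshold (log2 fold change 0.35, adjusted p = 0.175), although it passed without AVP-flox;Cre 2 (0.50, adjusted p = 0.0308). Bmp2 (ENSMUSG00000027358) fell 1.84-fold, from 4.59, 5.25, 6.65 and 6.75 TPM to 3.12, 3.67, 2.31 and 3.54 TPM, with a log2 fold change of -0.71 (SE 0.18, adjusted p = 0.0149). All AVP-flox;Cre libraries lay below all AVP-flox libraries. The call on Bmp2 ended without AVP-flox 3 (adjusted p = 0.0508) and when libraries were corrected for GC content at the transcripts' 5' ends (-0.53, adjusted p = 0.0668). Bmp3, an atypical member that opposes other BMPs, rose 1.68-fold, from 6.41, 5.97, 7.65 and 7.04 TPM to 11.0, 9.86, 9.92 and 14.6 TPM (log2 fold change 0.66, SE 0.15, adjusted p = 0.00874).

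Bmp7, the BMP best known from kidney development, was at 11.5, 7.42, 12.3 and 9.99 TPM in AVP-flox and at 13.1, 13.3, 13.7 and 17.8 TPM in AVP-flox;Cre. The groups did not overlap, yet the adjusted p was 0.0580 at a log2 fold change of 0.46. It passed with a filter at 5 TPM (adjusted p = 0.0465), with median-of-ratios scaling (0.0476), with quantile normalization (0.0464) and with the 5' GC correction (0.60, adjusted p = 0.0275). Inhbb, which encodes the subunit of activin B, was at 0.52 to 1.46 and 1.73 to 2.57 TPM, also without overlap, at an adjusted p of 0.0555 (0.0454 without AVP-flox 3). Gdf15, a stress-induced ligand, was uneven in AVP-flox;Cre, at 2.63, 24.9, 5.36 and 4.30 TPM against 7.42 to 13.2 TPM in AVP-flox. Its log2 fold change was -0.61 (adjusted p = 0.417), and -1.20 without AVP-flox;Cre 2 (adjusted p = 0.00801). Bmp6 had a log2 fold change of -0.15 and Bmp1, which cleaves procollagens and chordin and is not a ligand of the family, one of -0.10. The remaining genes Bmp5, Gdf10, Gdf11 and Inhba had means below 1 TPM and were not tested. Of these, Gdf11 came closest, at 0.55 to 1.28 and 0.45 to 1.43 TPM. Summed over Bmp2 to Bmp7, BMP ligand TPM was 56.2 to 69.2 in the AVP-flox libraries and 59.8 to 95.9 in those with Cre, of which Bmp4 made up 59.4 ± 4.7% and 60.1 ± 5.0%.

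The 3 TGF-beta receptor genes rose modestly. Tgfbr3 (ENSMUSG00000029287), which encodes the co-receptor betaglycan that presents TGF-beta 2 to the type II receptor, was at 106, 105, 102 and 112 TPM in AVP-flox and at 147, 142, 152 and 165 TPM in AVP-flox;Cre. Its values did not overlap and were tight within groups, and it rose 1.42-fold (log2 fold change 0.50, SE 0.07, adjusted p = 0.000592). Tgfbr1, the type I kinase, rose 1.26-fold, from 33.2, 33.4, 35.3 and 33.0 TPM to 42.4, 44.2, 40.3 and 43.2 TPM (log2 fold change 0.33, adjusted p = 0.00718). Tgfbr2, the type II kinase, was at 110, 148, 114 and 127 TPM and at 143, 165, 157 and 154 TPM. Here AVP-flox 2 lay above AVP-flox;Cre 1, and the log2 fold change of 0.32 (adjusted p = 0.0348) was the least secure of the receptor calls. It ended in 6 of the 8 fits that left out 1 library, namely those without AVP-flox 1, 3 or 4, or without replicate 2, 3 or 4 of AVP-flox;Cre, where log2 fold changes ran from 0.26 to 0.33 and adjusted p from 0.0614 to 0.0975.

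Acvr2a, a type II receptor shared by activins and BMPs, rose 1.35-fold, from 16.1, 17.0, 17.7 and 16.6 TPM to 23.3, 22.5, 21.5 and 23.8 TPM (log2 fold change 0.42, SE 0.08, adjusted p = 0.00478). Bambi, a pseudoreceptor without a kinase domain that dampens signalling, rose 1.55-fold, from 5.14, 4.87, 6.48 and 6.20 TPM to 8.69, 7.65, 9.03 and 9.77 TPM (adjusted p = 0.0129). Neither gene overlapped between groups. With AVP-flox;Cre 2 and 4 left out, the log2 fold change was 0.57 for Bambi (adjusted p = 0.0590) and 0.29 for Tgfbr1 (adjusted p = 0.0516), against 0.56 and 0.33 with all libraries. The BMP type I receptor gene Bmpr1a stood at 78.7, 85.4, 85.6 and 86.7 TPM in AVP-flox. In AVP-flox;Cre it was at 103, 35.4, 56.5 and 32.9 TPM, so that AVP-flox;Cre 1 was above all AVP-flox libraries and the other 3 were below them. Its log2 fold change of -0.71 did not pass the test (adjusted p = 0.107), but did without AVP-flox;Cre 1 (-1.04, adjusted p = 0.00345). It was -0.49 after correction for 5' GC (adjusted p = 0.167) and -0.14 with AVP-flox;Cre 2 and 4 left out (adjusted p = 0.687). Bmpr1b, the other BMP type I receptor, was at 34.3 to 43.8 and 40.6 to 51.9 TPM (log2 fold change 0.20, 95% interval -0.03 to 0.44). Acvr1, Acvr1b, Acvr2b and Bmpr2 did not pass either, with log2 fold changes from -0.11 (Bmpr2) to 0.35 (Acvr2b). Acvr2b was at 11.0 to 24.2 and 18.0 to 27.0 TPM, and the other 3 lay below 10 TPM in every library.

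**Figure D2:**
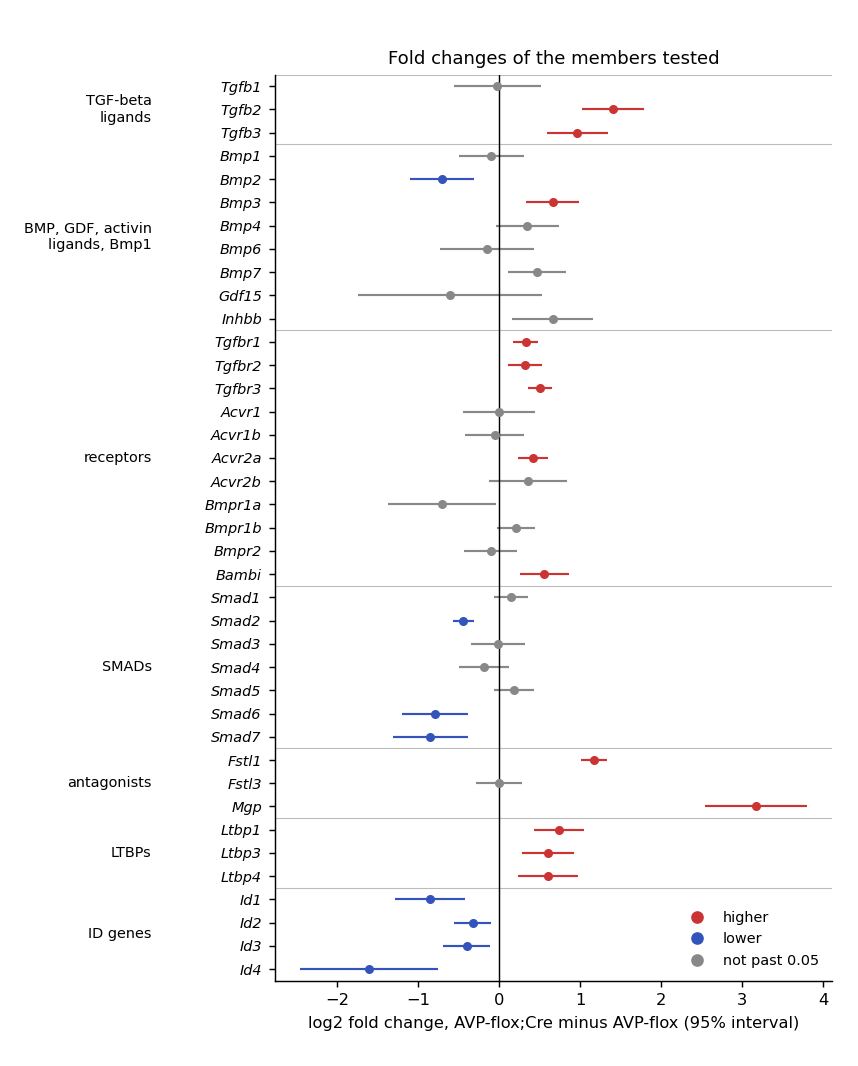
Log2 fold changes of the 39 tested genes, AVP-flox;Cre minus AVP-flox, with 95% intervals from limma (4 libraries per group), grouped by role. Red points rose, blue points fell and grey points did not pass an adjusted p of 0.05. Mgp, at 3.17, lies furthest to the right, and the 4 ID genes lie left of 0.

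Smad2 and the inhibitory SMADs fell, and the other 4 SMAD genes tested did not pass. Smad1 was at 35.4, 33.5, 34.4 and 28.4 TPM and at 33.1, 35.2, 38.2 and 38.7 TPM (log2 fold change 0.14, 95% interval -0.07 to 0.35). Smad5 had a log2 fold change of 0.18 (95% interval -0.06 to 0.43), Smad3 one of -0.02 (-0.34 to 0.31) and Smad4 one of -0.19 (-0.50 to 0.12). Smad9, a further BMP-branch receptor SMAD from the wider list described at the end, had a mean below 1 TPM and was not tested, at 1.23, 1.25, 1.84 and 1.19 TPM in AVP-flox and 0.57, 0.55, 0.25 and 0.57 TPM in AVP-flox;Cre, without overlap. Smad6 (ENSMUSG00000036867), which mainly restrains BMP receptors, fell 1.77-fold, from 15.6, 17.2, 17.9 and 20.6 TPM to 13.1, 8.57, 11.7 and 6.87 TPM (log2 fold change -0.80, SE 0.18, adjusted p = 0.0103). Smad7, which restrains both branches, fell 2.05-fold, from 4.88, 7.35, 8.06 and 5.50 TPM to 4.55, 2.72, 2.97 and 2.34 TPM (log2 fold change -0.85, SE 0.21, adjusted p = 0.0139). Neither overlapped between groups, though Smad7 in AVP-flox;Cre 1 lay just below the lowest AVP-flox value. Both calls ended with AVP-flox;Cre 2 and 4 left out (-0.48 and -0.64, adjusted p = 0.0573 and 0.124).

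Smad2, the most abundant SMAD, stood at 85.3, 88.5, 84.8 and 91.04 TPM in AVP-flox and at 64.4, 64.5, 65.4 and 61.8 TPM in AVP-flox;Cre. The 1.37-fold fall was even across libraries (log2 fold change -0.44, SE 0.06, adjusted p = 0.000701). The first 300 nt of its longest annotated transcript hold 80.7% GC, and with each library corrected for its trend with 5' GC the log2 fold change was -0.12 (adjusted p = 0.407). The median deviation of the 2367 tested genes with over 70% GC there was -0.05, -0.22, -0.10 and -0.13 on the log2 scale in AVP-flox;Cre 1 to 4, against -0.01 to 0.03 in AVP-flox. Over all genes tested the median deviation in AVP-flox;Cre 1 to 4 was -0.02, -0.13, 0.02 and 0.08. Of the 21 calls among these genes, 19 held under that correction, and those on Smad2 and Bmp2 did not.

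**Figure D3:**
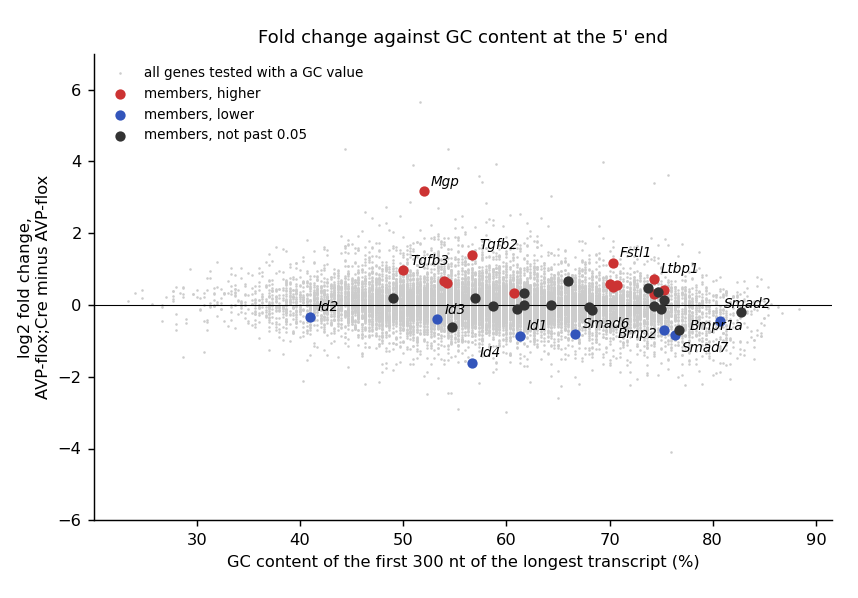
Log2 fold change, AVP-flox;Cre minus AVP-flox, against the GC content of the first 300 nt of the longest transcript for tested genes with an annotated transcript (small grey points) and for the 39 tested genes of the pathway (large points). Smad2, Smad4, Smad7, Bmp2 and Bmpr1a, which were lower on average, lie above 75% GC, as do Acvr2a, which rose, and Smad1. Mgp, Tgfb2, Tgfb3, Id2, Id3 and Id4 lie below 60%.

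The secreted antagonist and binding protein genes held the largest change. Mgp (ENSMUSG00000030218) encodes matrix Gla protein, a vitamin K-dependent inhibitor of calcification that also binds BMPs. It was at 12.6, 12.9, 26.1 and 14.6 TPM in AVP-flox and at 127, 115, 134 and 259 TPM in AVP-flox;Cre. The lowest AVP-flox;Cre library thus exceeded the highest AVP-flox library by far, and AVP-flox;Cre 4 stood above the other 3. The rise was 9.60-fold (log2 fold change 3.17, SE 0.28, adjusted p = 7.44e-05), and 2.97 on the log2 scale with AVP-flox;Cre 2 and 4 left out (adjusted p = 0.00335). Fstl1 (ENSMUSG00000022816), a follistatin-like secreted glycoprotein that binds BMP4, was at 28.7, 29.0, 31.98 and 27.7 TPM and at 69.8, 65.6, 68.8 and 65.5 TPM. It rose 2.30-fold with little spread (log2 fold change 1.17, SE 0.07, adjusted p = 1.38e-05), and it alone of these genes passed the test when AVP-flox;Cre 1 stood for its group by itself (1.22, adjusted p = 0.0274). That fit assumes that a single library varies as the AVP-flox ones do. Fstl3, an activin antagonist, was at 12.9 to 16.4 and 12.2 to 17.3 TPM (95% interval -0.29 to 0.28). The classical BMP antagonist genes Grem1, Nog and Chrd and the activin antagonist gene Fst had means below 1 TPM and were not tested. Fst, the highest of the 4, was at 0.48 to 1.44 and 0.03 to 1.65 TPM.

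The latent TGF-beta binding proteins (LTBPs) hold TGF-beta in the matrix. Ltbp1 rose 1.68-fold, from 102, 102, 132 and 120 TPM to 209, 167, 158 and 236 TPM (log2 fold change 0.74, SE 0.14, adjusted p = 0.00369). Ltbp3 rose 1.51-fold, from 24.7, 40.4, 33.1 and 34.8 TPM to 54.0, 53.0, 51.7 and 42.6 TPM (adjusted p = 0.0120). Neither overlapped between groups. Ltbp4 rose 1.57-fold, from 12.02, 12.8, 9.52 and 13.5 TPM to 23.7, 17.7, 19.9 and 13.8 TPM (log2 fold change 0.60, adjusted p = 0.0240), with AVP-flox;Cre 4 just above the highest AVP-flox value. In limma the adjusted p was 0.0539 without AVP-flox 1 and 0.0704 without AVP-flox 3, and it was 0.0624 or 0.0685 without replicate 1 or 3 of AVP-flox;Cre. With a replicate block it was 0.0524. Ltbp2, a family member that does not hold latent TGF-beta, was below 1 TPM on average and not tested, at 0.03 to 0.23 TPM in AVP-flox and 0.68 to 1.34 TPM in AVP-flox;Cre. Ltbp1 made up 71.5 ± 4.3% and 72.9 ± 5.4% of the summed LTBP TPM, which went from 139 to 175 TPM in AVP-flox to 231 to 293 TPM in AVP-flox;Cre.

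Part of the marker genes of other cell types also changed, beside 13.1% higher and 14.2% lower among all genes tested. The marker lists too were chosen with earlier results of these data known. Of 14 markers of fibroblasts, pericytes and smooth muscle, 11 were tested, 6 rose and 5 did not pass, and their summed level was 150 to 199 TPM in AVP-flox and 305 to 381 TPM in AVP-flox;Cre. The 6 that rose were Col1a2, Pdgfra, Tagln, Acta2, Myh11 and Des, without overlap between groups. Mean Col1a2 went from 26.5 to 68.1 TPM, Pdgfra from 67.7 to 143 TPM and Tagln from 17.9 to 39.0 TPM. Col1a1, at 1.23 and 1.04 TPM on average, Col3a1, Pdgfrb, Rgs5 and Cspg4 did not pass. Lum, Postn and Cnn1 were below 1 TPM and not tested. Papillary surface and urothelial markers summed to 1797 to 2823 and 5015 to 5766 TPM, with 7 of 9 tested higher and Trp63 lower. Endothelial markers summed to 2841 to 2959 and 2675 to 2764 TPM, with 7 of 12 higher and Pecam1 and Emcn lower. Intercalated cell markers summed to 200.1 to 316 and 277 to 388 TPM, with 5 of 9 tested higher and Slc26a4 below 1 TPM. Leukocyte markers summed to 172 to 269 and 228 to 348 TPM, with 2 of 11 tested higher. Loop of Henle and distal tubule markers summed to 2352 to 4027 and 3167 to 3414 TPM, with 3 of 9 tested higher. Of these, Umod did not pass, at 1404, 188, 1139 and 1162 TPM in AVP-flox and 377 to 521 TPM in AVP-flox;Cre. Proximal tubule markers summed to 27.55 to 210 and 44.05 to 86.3 TPM, with 0 of 8 tested past the threshold. The part of these cell types in the changes described here was not tested. In bulk RNA, a change in the number of cells of a type and a change in RNA per cell cannot be told apart.

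The ID genes encode helix-loop-helix proteins that lack a DNA-binding region and block partner transcription factors. All 4 fell, by unequal amounts. Id1 (ENSMUSG00000042745) was at 31.4, 48.1, 41.3 and 38.1 TPM in AVP-flox and at 21.1, 14.8, 29.5 and 22.2 TPM in AVP-flox;Cre, without overlap. It fell 1.81-fold (log2 fold change -0.85, SE 0.19, adjusted p = 0.00954). Id3, the most abundant of the 4, was at 195, 193, 184 and 230 TPM and at 151, 116, 183 and 160 TPM, so its groups nearly touched without overlapping. Its 1.31-fold fall (log2 fold change -0.40, adjusted p = 0.0427) passed the test in only 1 of the 8 fits that left out a library, the one without AVP-flox;Cre 3. Without any 1 AVP-flox library, or without replicate 1, 2 or 4 of AVP-flox;Cre, the log2 fold change was -0.44 to -0.28 and the adjusted p 0.0641 to 0.112.

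Id2 was at 85.3, 74.2, 88.5 and 82.9 TPM and at 62.4, 55.3, 75.1 and 70.8 TPM, with AVP-flox;Cre 3 just above AVP-flox 2. Its 1.25-fold fall (log2 fold change -0.33, adjusted p = 0.0384) ended without AVP-flox 1, 3 or 4, or without replicate 1 or 2 of AVP-flox;Cre (-0.33 to -0.25, adjusted p 0.0770 to 0.103). Id4 had the largest fall of the 4 but the most uneven one. It was at 32.3, 39.8, 51.0 and 37.9 TPM in AVP-flox and at 33.1, 8.11, 10.8 and 7.63 TPM in AVP-flox;Cre. AVP-flox;Cre 1 lay within the AVP-flox range and the other 3 far below it (log2 fold change -1.61, SE 0.38, adjusted p = 0.0119). Set against AVP-flox by itself, AVP-flox;Cre 1 gave a log2 fold change of Id4 of -0.26 (adjusted p = 0.576). Summed ID TPM, 344 to 389 in AVP-flox, was 194 to 298 in AVP-flox;Cre. With AVP-flox;Cre 2 and 4 left out, the log2 fold changes were -0.63 (Id1), -0.27 (Id2), -0.26 (Id3) and -1.02 (Id4), and the limma adjusted p were 0.0717 to 0.171.

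**Figure D4:**
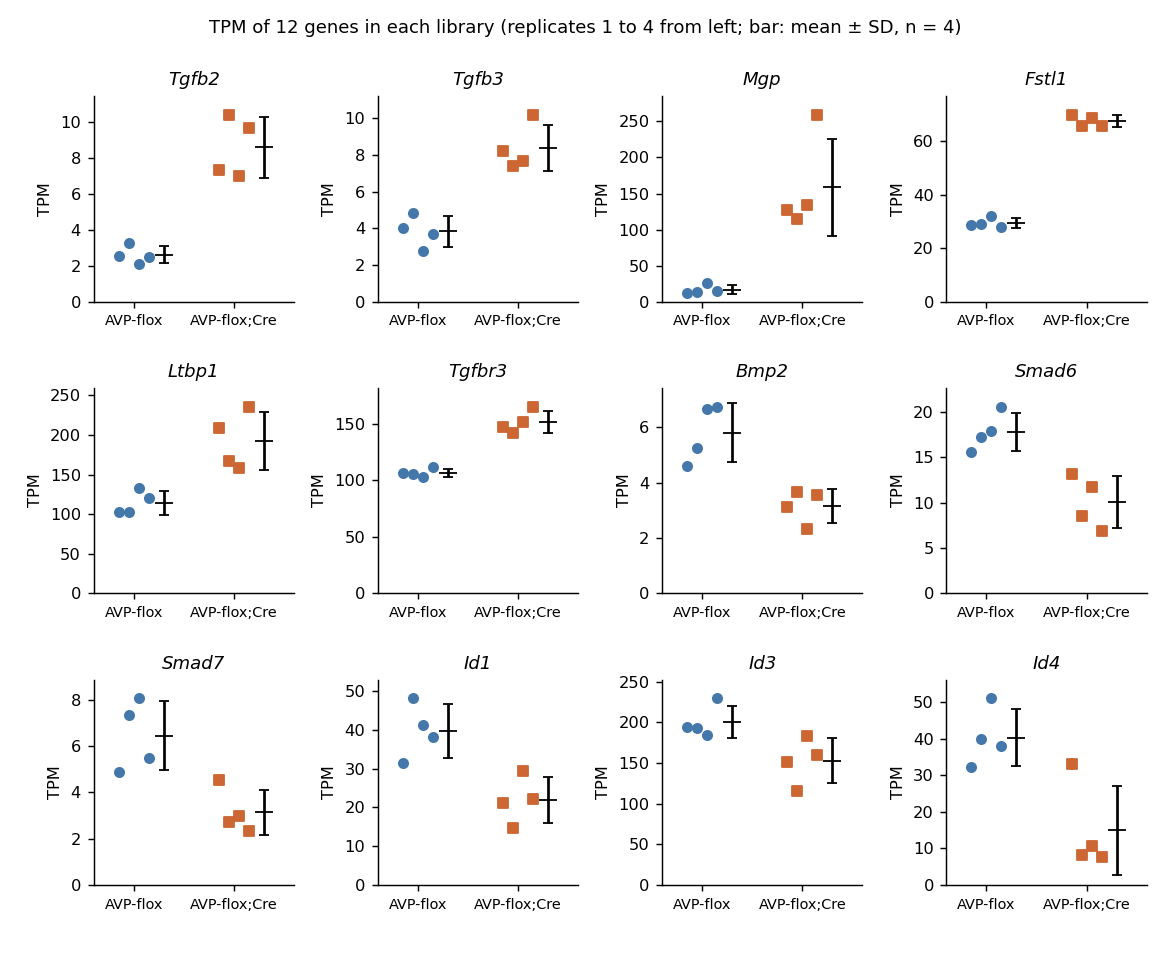
TPM of 12 genes in each library (circles AVP-flox, squares AVP-flox;Cre, replicates 1 to 4 from left to right), with mean ± SD of 4 libraries beside them. Axes start at 0. Fstl1 and Tgfbr3 are tight within groups, Mgp is highest in AVP-flox;Cre 4 at 259 TPM, and Id4 in AVP-flox;Cre 1, at 33.1 TPM, sits among the AVP-flox values.

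Promoter sequence is shown for 3 of the ID genes, which fell by unequal amounts, and for Tgfb2, which rose. SMAD complexes are known to act through short elements near the start of target genes. The sequences are RefSeq's (GRCm38.p6), 5' to 3' on the gene's strand, and hold the 250 bases before the annotated start. Capitals mark matches on either strand to the GC-rich SMAD element GGCGCC, whose reverse complement is itself, or to the SMAD box CAGAC. The build used for the deposited values is not given in the sources used here.
Id2, chr12:25096093-25096342, minus strand: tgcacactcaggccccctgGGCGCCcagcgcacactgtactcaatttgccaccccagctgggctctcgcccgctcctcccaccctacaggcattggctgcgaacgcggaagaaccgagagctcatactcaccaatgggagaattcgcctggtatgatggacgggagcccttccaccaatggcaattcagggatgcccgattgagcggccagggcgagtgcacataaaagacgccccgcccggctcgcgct
Id3, chr4:136143572-136143821, plus strand: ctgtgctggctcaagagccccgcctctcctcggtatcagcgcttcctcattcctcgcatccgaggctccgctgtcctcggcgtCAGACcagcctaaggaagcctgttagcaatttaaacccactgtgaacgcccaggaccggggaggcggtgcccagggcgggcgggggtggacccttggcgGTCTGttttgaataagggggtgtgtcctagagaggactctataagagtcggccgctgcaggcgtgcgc
Id4, chr13:48260866-48261115, plus strand: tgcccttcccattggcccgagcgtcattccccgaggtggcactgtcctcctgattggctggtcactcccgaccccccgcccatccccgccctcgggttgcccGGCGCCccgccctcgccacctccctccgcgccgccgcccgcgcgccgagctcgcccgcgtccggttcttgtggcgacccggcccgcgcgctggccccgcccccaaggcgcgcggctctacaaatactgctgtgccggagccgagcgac
Tgfb2, chr1:186705990-186706239, minus strand: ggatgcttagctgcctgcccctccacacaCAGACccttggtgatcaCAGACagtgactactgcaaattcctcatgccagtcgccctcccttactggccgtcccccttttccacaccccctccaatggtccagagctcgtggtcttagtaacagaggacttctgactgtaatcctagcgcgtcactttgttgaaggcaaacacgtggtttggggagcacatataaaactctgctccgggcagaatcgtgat
Id2 and Id4 each held 1 match to GGCGCC, and Id3 and Tgfb2 each held 2 matches to CAGAC. Of all 32841 promoter windows of this length, 9.59% held GGCGCC and 42.2% held CAGAC. 34 of the 48 genes had a window. GGCGCC stood in the first listed window of 1 of 8 genes that rose and 2 of 4 that fell. It also stood in 2 of 15 that did not pass and 2 of 7 not tested. For CAGAC these counts were 5 of 8, 1 of 4, 5 of 15 and 4 of 7. Median GC content was 52.4% over all windows, against 62.8% in the window of Id2 and 75.6% in that of Id4. The part of GC content in these matches was not tested. The windows of Smad6, which also fell, and of Fstl1, which rose, held neither motif. A match describes letters in the sequence and not a bound site. Id1, Mgp, Bmp2 and Tgfb3 had no entry.

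A wider list of 76 pathway genes outside the 48 gave the surroundings of these changes. Of its 47 tested genes, 12 rose, 5 fell and 30 did not pass, against 13.1% higher and 14.2% lower among all genes tested. This list too was chosen with earlier results of these data known. Rises were most frequent among secreted modulators, with 8 of 19 higher and 2 lower. Kcp, a chordin-like modulator of BMP and TGF-beta signalling in the kidney, rose 3.25-fold, from 4.50, 6.02, 6.06 and 6.09 TPM to 20.6, 15.4, 15.3 and 22.5 TPM (log2 fold change 1.53, adjusted p = 0.000150). Nbl1, a BMP antagonist of the DAN family, rose 2.48-fold to 691 ± 110 TPM from 278 ± 68 TPM. Sostdc1, a BMP antagonist of the distal nephron, rose 1.80-fold to 267 ± 29 TPM from 148 ± 34 TPM (adjusted p = 0.00391). Chrdl1, a chordin-like BMP antagonist, went the other way and fell 1.82-fold, from 19.8 ± 0.9 to 10.8 ± 1.6 TPM. Among the other modulators, Bgn (biglycan) rose 2.06-fold, Emilin1 2.19-fold, Vasn (vasorin) 1.63-fold and the chordin-cleaving proteinase gene Tll1 2.10-fold, while Dcn (decorin), Fmod (fibromodulin) and Thbs1 (thrombospondin) did not pass, at adjusted p of 0.734, 0.188 and 0.744.

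Eng, an endothelial co-receptor, rose 1.42-fold, from 168 ± 7 to 238 ± 8 TPM, beside the mixed endothelial markers given above, while Tgfbrap1, a receptor-associated adaptor, fell 1.48-fold. Of the SMAD corepressor genes, Tgif2 rose 2.12-fold and Ski 1.46-fold (adjusted p = 0.0175), Tgif1 did not pass (adjusted p = 0.607), and Skil, itself a TGF-beta target, fell 1.69-fold, from 32.4, 34.4, 39.5 and 31.7 TPM to 22.3, 16.8, 21.3 and 21.1 TPM. Of the 10 other target genes in the list, 6 were tested and 0 passed in limma, with 2 at an unadjusted p under 0.05 (Ccn2 and Hey1). Ccn2, a matricellular TGF-beta target, was at 52.6, 100.5, 91.1 and 59.1 TPM and at 127, 71.9, 179 and 165 TPM (log2 fold change 0.80, adjusted p = 0.0693). Hey1 had a log2 fold change of -0.64 (adjusted p = 0.0713). Tgfbi, a TGF-beta-induced matrix protein gene, was at 0.74 to 1.37 and 0.65 to 1.83 TPM. The 15 of 19 ligands of this list that had means below 1 TPM were not tested, and 0 of the other 4 passed in limma, with 2 at an unadjusted p under 0.05.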

How the data were processed

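RNA from 8 mouse kidney samples labelled IMCD was measured. Per the labels' protocols, the SMART-Seq HT kit made cDNA from 1 ng of RNA in 11 PCR cycles, Nextera XT was used for libraries, and sequencing was paired-end (50 bp). The submitters' processing notes name STAR and RSEM and give no version. The authors deposited TPM per Ensembl gene, with 1 column per library. The genome build is not given in the sources used here, nor is the annotation. WT columns were matched to AVP-flox samples and KO columns to AVP-flox;Cre samples through sample titles. Identifiers sharing a symbol were summed, and each of the 48 genes has 1 identifier.

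R 4.3.3 with limma 3.58.1 was used, with a pseudocount of 1, a filter at a mean of 1 TPM, a mean-variance trend and two-sided tests. The fit was checked on simulated data. GC content came from GENCODE M21 transcripts, which 83.9% of tested genes and all 39 tested members matched. The members and lists were chosen with earlier results of these data known. All tested members are given; values per library are given for members past the threshold and the 2 most abundant of each role, and up to 12 wider pathway genes past it are named by smallest adjusted p. Other genes named from the wider list and the marker lists were chosen after their values were seen. Alternatives were a replicate block, other pseudocounts, filters, scalings and limma settings, a sex covariate, a 5' GC correction (loess span 0.3), each library left out, and 2 omissions of several libraries added after seeing the data. Deviations of same-numbered libraries were at most weakly correlated, and the main fit did not treat the numbers as pairs.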

Additional observations from a re-analysis of the deposited data

Results flagged for a closer look

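In each group of 4 libraries, a library was picked out when its gap to the nearest other one, as a share of the group's range, exceeded Dixon's 95% limit. Of the 78 groups (39 tested genes in both genotypes), 7 held such a library, and chance alone picks out about 1 in 20. Mgp gave a pair of them: AVP-flox;Cre 4 at 259.1 TPM stood above the other 3 at 114.7 to 133.67 TPM, and AVP-flox 3 at 26.07 TPM above 12.59 to 14.55 TPM. Id4 in AVP-flox;Cre 1 was at 33.08 TPM, against 7.63 to 10.79 TPM in the rest of its group. Gdf15 in AVP-flox;Cre 2 was at 24.85 TPM, against 2.63 to 5.36 TPM. Bmp7 in AVP-flox;Cre 4 was at 17.75 TPM, against 13.12 to 13.66 TPM. In the AVP-flox group, Tgfbr1 in replicate 3 was at 35.29 TPM, against 33.02 to 33.37 TPM, and Bmpr1a in replicate 1 was at 78.67 TPM, against 85.41 to 86.72 TPM.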

How the results depend on the processing

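Of the 21 calls, 16 held whichever single library was left out, and those on Bmp2, Tgfbr2, Ltbp4, Id2 and Id3 did not. Over these omissions 11 to 13 of the 39 tested members rose and 5 to 8 fell (5 without AVP-flox 3), 3 to 7 genes of the wider list fell (3 without AVP-flox 4 or AVP-flox;Cre 4), and 3960 to 4769 of all genes changed. Same-numbered libraries had deviations correlated at 0.00, 0.02, 0.09 and 0.00, and the other combinations at -0.06 to 0.07. Such weak correlations cannot show whether the replicate numbers mark pairs. With a replicate block in the fit, 4431 genes changed, 12 members rose and 8 fell, and Ltbp4 alone lost its call. Without a filter 3409 genes changed, 1643 fell and 3 of the wider list fell, with more genes tested. Of the 21 calls, 17 were kept without a filter, 18 without the trend in limma and 19 with a sex covariate. At a threshold of 0.1, 10 of the wider list fell.

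The other omissions were chosen after seeing the data, and 39 of the 48 genes were tested in each. Without AVP-flox;Cre 2 and 4, 2988 genes changed (1555 higher, 1433 lower), 3 of the 48 fell and 3 of the wider list fell, and 12 of the 21 calls were kept. With AVP-flox;Cre 1 alone in its group, 170 genes changed (122 higher, 48 lower), 1 of the 48 rose and 0 fell, and of the wider list 0 rose and 0 fell in limma. Both leave fewer samples.

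Sign changes were limited to genes that did not pass the test, and their cause was not tested. Log2 fold changes became 0.0017 (Acvr1) at a pseudocount of 0.1, 0.012 (Acvr1) and 0.010 (Fstl3) with median-of-ratios scaling, 0.022 (Smad3) and 0.017 (Fstl3) with quantile normalization, and 0.0019 (Bmp1) and 0.013 (Acvr1) with sample weights. They became 0.0097 (Acvr1b), 0.059 (Smad3) and 0.030 (Fstl3) with a sex covariate, and 0.065 (Bmpr2), 0.14 (Smad3) and 0.19 (Smad4) after 5' GC correction. Without AVP-flox;Cre 2 and 4 they were 0.080 (Tgfb1), 0.17 (Bmp1) and 0.14 (Bmp6), and with AVP-flox;Cre 1 alone 0.51 (Tgfb1), 0.38 (Bmp1), 0.46 (Bmp6), 0.093 (Acvr1) and 0.29 (Bmpr1a). Leaving out 1 library gave -0.20 to 0.084 (Tgfb1), -0.36 to 0.022 (Bmp6), -0.11 to 0.12 (Acvr1), -0.15 to 0.036 (Acvr1b), -0.12 to 0.087 (Smad3) and -0.075 to 0.083 (Fstl3). TPM gives no depth, so the precision of low genes is unknown.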
